A study of Mus musculus and Homo sapiens with 75 samples.

Results

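KO-52 is a human acute myeloid leukaemia line in which both copies of CEBPA are mutated. The account given here is of 6 of its RNA libraries, 3 labelled p42 and 3 labelled EV (empty vector), all untreated, out of 75 libraries in the whole series. By electroporation the cells received 2 µg of a plasmid, either p42-FLAG-GFP, which encodes full-length C/EBP-alpha, a transcription factor, with a FLAG tag, or a plasmid with GFP alone. In both groups GFP-positive cells were sorted 24 h later and kept for a further 24 h, so expression was transient and each library is a sorted mixture of transfected cells rather than a clone. For comparison, 3 untreated libraries labelled p30 (p30-FLAG-GFP, the short form that lacks the amino terminus) and the EV and p42 libraries taken after 2 h of LPS at 100 ng/mL, with 3 libraries each, are used where stated. All 6 groups of the table, 18 libraries, entered one model. The features were 59251 genes, of which 21272 had enough reads to be tested, and 92 ERCC spike-in RNAs, which were added to each sample and serve only to scale it.

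C/EBP-alpha binds DNA through a basic leucine zipper and is required for the step from myeloid progenitors to granulocyte and monocyte precursors. Its carboxy-terminal part is shared by both forms, while the amino-terminal part that only p42 carries holds a transactivation region and contacts with cell cycle regulators. Neutrophil precursors make the contents of their granules in waves, first the primary granules with myeloperoxidase and serine proteases, then the secondary and tertiary granules with iron- and matrix-binding proteins. Blasts that keep high CD34 and stem cell factors and lack late granule proteins are regarded as blocked before these waves.

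The 6 libraries held 22905077 to 32414233 reads on genes, and 0.437% to 0.733% of their reads fell on spike-ins. Levels are given as CPM, read counts relative to a library size that was scaled by the spike-ins. Relative to the read totals, that scaling ranged from 0.888 to 1.47 between the 6 libraries, whereas factors taken from the genes themselves (TMM) stayed between 0.947 and 1.02. The largest spike-in factor belonged to p42 replicate 1 and the smallest to p42 replicate 3. EV replicates 2 and 3 stood apart from each other by base composition. Genes with a GC content of 57.5% or more lay 0.45 (log2) above the EV mean in replicate 2 and 0.46 below it in replicate 3 (medians). In p42 replicates 1 and 3 these genes lay at -0.47 and 0.53 from the p42 mean. Genes with 40.6% or less lay on the same side there, at -0.20 and 0.35. The difference between p42 and EV also ran with GC content. Its median was -0.358 in genes with 40.6% or less and 0.247 in those with 57.5% or more. Fold changes below are not corrected for this trend unless stated. The nominal replicates differed by more than counting noise, with chi-square values per gene between 24.6 and 94.6 inside the EV and p42 groups, so none was a repeat of another.

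CEBPA (hg38 chromosome 19, 33299934 to 33302534, minus strand) was read first, because a plasmid coding for it was introduced. Its level was 1744, 2346 and 1033 CPM in EV replicates 1, 2 and 3. In the libraries labelled p42 it was 919, 991 and 1639 CPM. The ranges overlapped, and the fitted log2 fold change was -0.53 (SE 0.26, edgeR adjusted p = 0.19). It stood at -0.83 (edgeR adjusted p = 0.029) without p42 replicate 3 and at -0.95 (edgeR adjusted p = 0.0021) after a correction for GC content. The count therefore did not mark the libraries labelled p42, and it does not separate the cell's own transcript from that of a plasmid. Separately from these counts, a supplementary figure of the paper reports overexpression of p42 and of p30 in KO-52 cells relative to empty vector. The names p42 and EV are used below for the libraries that carry these labels, and every direction rests on the labels.

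The markers of the line were in part those of a myeloid blast. EV libraries had 413 to 483 CPM of CD34, 56.6 to 90.7 CPM of CD33 and 336 to 467 CPM of ANPEP, the gene of CD13. Of the 12 myeloblast markers listed, FLT3, PROM1 and CD200 had 0 reads in EV, and KIT had 13.2 to 15.7 CPM. The mast cell and basophil genes FCER1A and CPA3 were also present in EV, at 66.2 to 81.2 and 72.8 to 92.3 CPM. Haemoglobin genes other than HBD, the B-cell genes MS4A1, PAX5 and EBF1, and the complement genes C1QA, C1QB and C1QC of macrophages were at or near 0 in every library. CD3D, a T-cell receptor subunit gene, was an exception among 17 lymphoid markers, with 68.1 to 116 CPM in EV. A difference between groups in these sorted cells can come from fewer cells of a type or from less RNA per cell, which bulk counts cannot tell apart.

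p42 was followed by many more rises than falls. Against EV, 1947 genes were called higher (9.15% of those tested) and 451 lower (2.12%), where a call required an edgeR adjusted p under 0.05 together with a fitted change beyond 1 on the log2 scale. Those shares are the background for the counts of called list members given below. For counts at an unadjusted p under 0.05 the share over all genes was not worked out. Such counts therefore have no background and only describe the list. The median over all genes tested was -0.06 (log2), and 0.03 with TMM, which gave 2352 rises and 449 falls. Of the genes called higher, 1253 had a fitted log2 fold change over 2 and 481 over 5. Of those called lower, 103 went beyond -2 and 3 beyond -5. Groups that do not overlap were common in either direction, since p42 lay wholly above EV in 13.1% of all genes and wholly below in 13.4%. This balance belongs to the spike-in scale (2787 and 2858 genes), since on the TMM scale the numbers were 4429 and 3338. Among called genes the groups were apart in 95.1% of those higher and 92.5% of those lower. No read was seen in any EV library for 310 of the genes called higher, and 181 of these also had no read in the p30 libraries. Such genes were kept for testing because of libraries in which they are high, so their direction was fixed by that choice. In the other direction, 3 genes called lower had no read in p42. The count of falls rested partly on single libraries, being 277 without p42 replicate 2 and 938 without p42 replicate 3.

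The secondary and tertiary granule genes had the highest median of the lists examined. Of 10 such genes tested, 8 rose and 1 fell, with a median log2 fold change of 7.72, or 4.92 with members at 0 reads in EV put at their bound, against -0.06 over all genes. Members at 0 reads in EV passed the filter only through libraries in which they are high, and members low throughout were not tested. The count and the median are therefore partly set by the filter, as in every list with such members. MMP8, the neutrophil collagenase (chromosome 11, 102711796 to 102727050), had 0 reads in all 3 EV libraries. In p42 it had 177, 253 and 299.5 CPM, which is at least 1867-fold higher than a floor of 3 reads per EV library. ARG1, the arginase of neutrophil granules, went from 0.203, 0.217 and 0 CPM in EV to 84.4, 139 and 142 CPM in p42. HP, haptoglobin, was at 0, 0.174 and 0 CPM in EV and at 26.2, 51.4 and 51.1 CPM in p42. These 3 genes thus went from next to no reads in EV to 26.2 CPM or more in each p42 library. MMP9, the gelatinase of tertiary granules, had 0.122, 0.391 and 1.30 CPM in EV and 22.2, 27.8 and 50.8 CPM in p42. CAMP, the cathelicidin precursor, reached 0.502 to 1.45 CPM in p42. ORM1, an acute phase glycoprotein also stored in granules, and CRISP3 had 0 reads in EV and were at least 17.1-fold and 8.21-fold higher. TCN1, the vitamin B12-binding protein of secondary granules, was the member called lower, from 13.9, 14.8 and 14.2 CPM to 6.77, 4.69 and 5.69 CPM (log2 -1.32, SE 0.33). LTF, lactoferrin, was not called, although its log2 value of -1.42 was the lowest of the list. Both TCN1 and LTF were lower at an unadjusted edgeR p under 0.05. CHI3L1, a chitinase-like glycoprotein, went from 1 read in all over the EV libraries to 365 over the p42 libraries, 277 times the EV level with a 95% counting interval of 49.3 to 10960. A few untested members stayed at or near 0: LCN2 had 1 read over the EV libraries and 2 over the p42 libraries, and CEACAM8 and OLFM4 had 0 in p42.

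Of 14 primary granule genes listed, 9 were tested and 5 rose, with a median of 2.54. RNASE2, the eosinophil-derived neurotoxin, rose from 11, 12.8 and 9.50 CPM to 37.7, 69 and 86.6 CPM (log2 2.54, SE 0.33, edgeR adjusted p = 7.49e-13). RNASE3, the eosinophil cationic protein, rose by 3.53 (SE 0.41); it is a close copy of RNASE2, so reads may be shared between them. MS4A3, a membrane protein of granulocyte-monocyte progenitors, rose by 4.32 (SE 0.51). AZU1, azurocidin, had 0, 0.391 and 0.0723 CPM in EV and 0.474, 2.84 and 2.61 CPM in p42. PRTN3, proteinase 3, had 0 reads in EV and 0.279, 1.37 and 2.65 CPM in p42. MPO, myeloperoxidase and the hallmark of this granule, was already at 149.6, 230.1 and 147 CPM in EV. It had 115, 236 and 499.5 CPM in p42, and the log2 fold change of 0.69 (SE 0.28, edgeR adjusted p = 0.0865) did not pass, except without p42 replicate 1, where it was 1.08 (edgeR adjusted p = 0.00353). ELANE, neutrophil elastase, had 0 reads in EV and 2 in p42, and DEFA1, DEFA3 and DEFA4 had 0 in both.

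**Figure D1:**
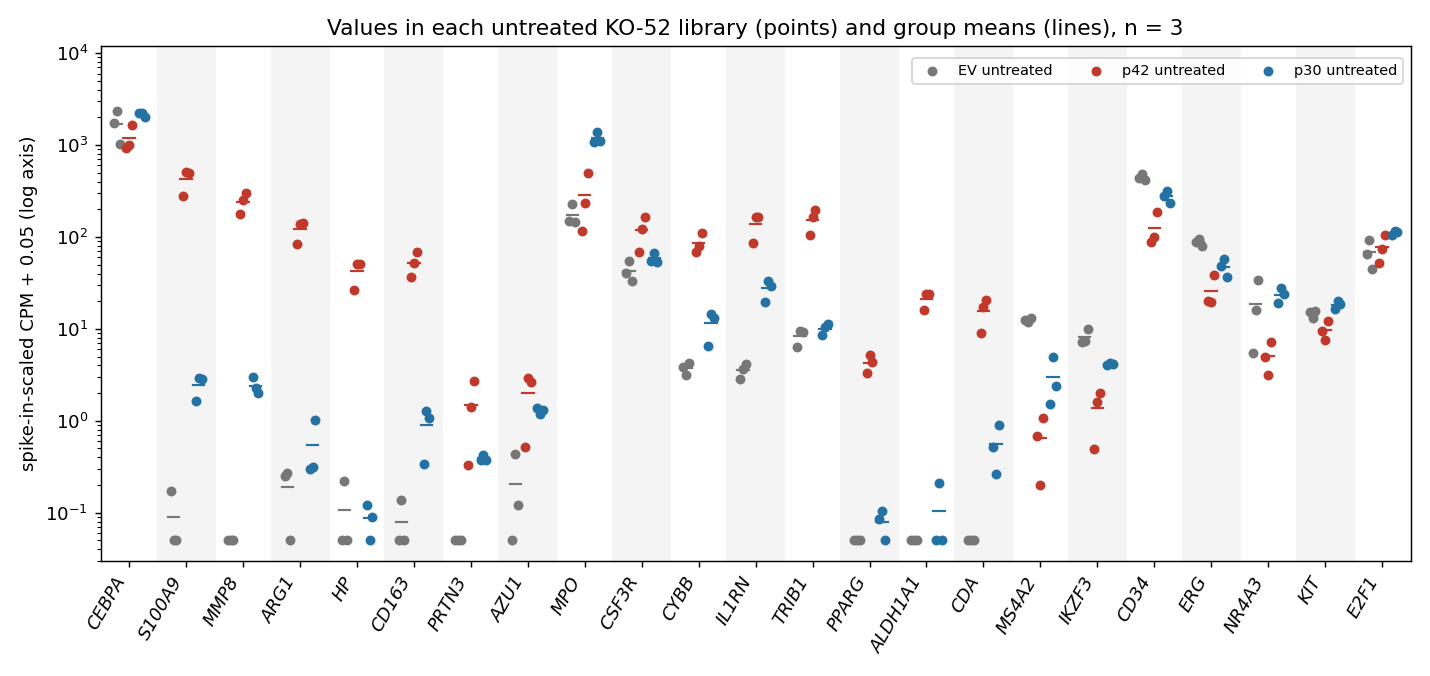
Points are the single untreated libraries and short lines the group means (n = 3), for EV (grey), p42 (red) and p30 (blue), on a log axis of spike-in-scaled CPM + 0.05, so that a value of 0 lies at 0.05. MMP8, PRTN3, PPARG, ALDH1A1 and CDA sit at 0 in all EV libraries and between 0.279 and 299.5 CPM in p42, MPO is highest in p30, and CEBPA and E2F1 overlap between EV and p42.

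The 250 bases before the transcript start of these granule genes are printed because C/EBP proteins are known to bind the letters TTGCNNAA, and the 5 primary granule genes that rose all hold them. Over all 17687 tested genes with a position in GENCODE v44, 7.05% of such windows held TTGCNNAA on either strand. Among genes called higher the share was 9.63% (155 of 1610 windows) and among genes called lower 7.87% (28 of 356). The windows of MMP8 and of the 5 primary granule genes are given 5′ to 3′ on the strand of the gene (hg38), in lower case with TTGCNNAA, or its reverse complement, in capitals. These genes were picked for printing after the matches were seen, and a match is a string of letters and not a site shown to be bound.
MMP8, chr11:102724955-102725204, minus strand: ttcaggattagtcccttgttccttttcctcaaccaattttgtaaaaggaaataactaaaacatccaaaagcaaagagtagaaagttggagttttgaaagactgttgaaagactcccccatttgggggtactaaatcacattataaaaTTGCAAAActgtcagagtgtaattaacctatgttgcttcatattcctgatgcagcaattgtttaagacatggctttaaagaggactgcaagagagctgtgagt
AZU1, chr19:827587-827836, plus strand: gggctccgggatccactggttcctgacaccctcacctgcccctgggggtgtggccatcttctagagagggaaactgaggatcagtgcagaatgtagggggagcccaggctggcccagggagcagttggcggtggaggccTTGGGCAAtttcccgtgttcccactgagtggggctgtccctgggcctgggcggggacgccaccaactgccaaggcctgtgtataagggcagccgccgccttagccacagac
PRTN3, chr19:840749-840998, plus strand: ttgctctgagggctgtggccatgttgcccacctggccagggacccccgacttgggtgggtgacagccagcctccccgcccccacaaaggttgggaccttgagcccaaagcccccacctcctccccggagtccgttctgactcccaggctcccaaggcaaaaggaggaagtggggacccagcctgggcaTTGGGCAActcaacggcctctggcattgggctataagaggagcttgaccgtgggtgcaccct
RNASE2, chr14:20955237-20955486, plus strand: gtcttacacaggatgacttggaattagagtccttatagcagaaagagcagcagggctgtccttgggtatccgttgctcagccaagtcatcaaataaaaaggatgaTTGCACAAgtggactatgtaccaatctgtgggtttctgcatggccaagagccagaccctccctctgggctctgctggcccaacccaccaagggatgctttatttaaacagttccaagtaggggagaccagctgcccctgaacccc
RNASE3, chr14:20891135-20891384, plus strand: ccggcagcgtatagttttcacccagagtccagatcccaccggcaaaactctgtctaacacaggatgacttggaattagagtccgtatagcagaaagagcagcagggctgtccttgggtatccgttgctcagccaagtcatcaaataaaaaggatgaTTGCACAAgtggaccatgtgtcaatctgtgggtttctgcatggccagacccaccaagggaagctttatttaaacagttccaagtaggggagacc
MS4A3, chr11:60056415-60056664, plus strand: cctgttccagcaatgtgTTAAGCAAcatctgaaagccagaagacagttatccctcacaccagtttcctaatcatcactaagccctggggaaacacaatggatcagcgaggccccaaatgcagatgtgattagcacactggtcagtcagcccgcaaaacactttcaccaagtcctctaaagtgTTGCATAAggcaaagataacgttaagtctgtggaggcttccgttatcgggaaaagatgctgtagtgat

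The match of MMP8 begins 103 bases before the start, those of AZU1 and PRTN3 111 and 62 bases before it, and those of RNASE2 and RNASE3 145 and 94 bases before it. MS4A3 holds 2 matches, at 233 and 68 bases. RNASE2 and RNASE3 are close copies and carry their match in the same stretch of letters, so these matches are not separate. The windows of S100A8, S100A9, ARG1 and HP, which also rose, hold no match in these 250 bases, while that of TCN1, which fell, holds 1. That of MPO, a primary granule gene that was not called, holds no match. TGANTCA, the letters bound by AP-1 proteins, was in 4.21% of all windows, 7.27% of those of genes called higher and 6.74% of those of genes called lower.

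Most calcium-binding S100 proteins and subunits of the phagocyte oxidase rose as well. S100A9 (chromosome 1, 153357854 to 153361023), a subunit of calprotectin, had 3 reads in all over the EV libraries. It had 282, 508 and 497 CPM in p42, 10630 times the EV level with a 95% counting interval of 3637 to 51550. Its partner S100A8 had 0 reads in EV and 11.7, 12.6 and 18.1 CPM in p42, at least 109-fold higher. Both subunits were thus present in every p42 library. S100A12 had 0 reads in EV and in p30 and 1.06, 1.35 and 2.52 CPM in p42. S100P rose from 1.55, 2.04 and 0.976 CPM to 24.3, 55.7 and 52.6 CPM, and 6 of 8 S100 genes tested rose (median 3.55, or 2.95 with members at their bound). Of the 7 oxidase genes, 5 rose (median 2.84). CYBB, the catalytic membrane subunit, rose from 3.78, 3.12 and 4.19 CPM to 68.6, 79.3 and 109.7 CPM (log2 4.53, SE 0.36). NCF1, a cytosolic organizer, rose by 6.04 (SE 0.43). NCF1 has near-identical pseudogenes, so its count is uncertain. SOD2, the mitochondrial superoxide dismutase, rose by 2.84 (SE 0.31) from a level of 60.3 to 64.5 CPM. CYBA, the small membrane subunit, was near the threshold at 1.04 (edgeR adjusted p = 0.00777) and was not called without EV replicate 3 (0.80), p42 replicate 2 (1.00) or p42 replicate 3 (0.77), or after GC correction (0.61).

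Receptors for growth factors and microbes rose in part. CSF3R, the receptor for G-CSF and a classical target of C/EBP-alpha, had 41, 55.1 and 33.2 CPM in EV and 69.3, 121 and 165 CPM in p42 (log2 1.46, SE 0.31, edgeR adjusted p = 5.57e-05). IL6R, which binds interleukin 6, rose from 12.1, 16 and 11.7 CPM to 66.7, 75.3 and 129 CPM (log2 2.77, SE 0.33). Every p42 library exceeded every EV library for both. CSF1R, the M-CSF receptor, rose by 1.87 (SE 0.33). FLT3 had 0 reads in EV and at most 0.984 CPM in p42. CSF2RA, the GM-CSF receptor chain, had 10.8 to 11.6 CPM in EV and 14.7 to 24 CPM in p42 and did not pass (0.78, edgeR adjusted p = 0.0919). IL3RA, the interleukin 3 receptor chain, rose by 1.22 (SE 0.35) and was not called without EV replicate 3 (0.98, edgeR adjusted p = 0.109).

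Of 30 innate immune receptors tested, 15 rose and 1 fell, with a median of 1.35. C5AR1, the receptor for the complement fragment C5a, had 0 reads in EV and 5.07, 7.48 and 12.3 CPM in p42, at least 63.6-fold higher. CLEC4E (Mincle) also had 0 reads in EV and was at least 37.3-fold higher, with 3.57, 5.28 and 5.73 CPM. Its neighbour CLEC4D rose from 0.407, 0.0434 and 0.361 CPM to 10.5, 18.8 and 22.4 CPM. These receptors were close to silent in EV. The formyl peptide receptors FPR1 and FPR2, which guide neutrophils to bacteria, rose by 4.86 (SE 0.50) and 4.30 (SE 0.43). CD14, the LPS co-receptor, rose from 0.203, 0.694 and 0.434 CPM to 4.60, 5.21 and 7.87 CPM (log2 3.72, SE 0.44, edgeR adjusted p = 4.06e-15). CLEC7A (Dectin-1) fell by 1.13 (SE 0.34), a call that was lost without EV replicate 3 (-0.81, edgeR adjusted p = 0.182) and after GC correction (-0.86). The inflammasome list gave 4 rises of 12 tested, beside 9.15% called higher over all genes. MEFV (pyrin) had 2 reads in all over the EV libraries and 2.06, 3.02 and 5.99 CPM in p42, 127 times the EV level with a 95% counting interval of 34.9 to 1053. NLRP12 rose from 0.0813, 0 and 0.145 CPM to 7.39, 6.70 and 10.9 CPM. AIM2, a sensor of cytosolic DNA, rose by 3.02 (SE 0.50) and CASP1, the inflammasome protease, by 1.25 (SE 0.31).

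Monocyte and macrophage markers were called higher in 11 of 15 tested, with a median of 2.09. CD163, the haemoglobin scavenger receptor, had 2 reads in all over the EV libraries and 36.8, 52.7 and 68.6 CPM in p42, 1908 times the EV level with a 95% counting interval of 528 to 15760. MRC1, the mannose receptor, rose from 0.244, 0.0868 and 0.0361 CPM to 14, 25 and 27.6 CPM. FCN1 (ficolin 1) rose from 0.325, 0.217 and 0.939 CPM to 25.5, 28 and 37.1 CPM. LYZ, lysozyme, already well expressed, rose from 58.6, 67.8 and 64.4 CPM to 267, 584 and 813 CPM (log2 3.12, SE 0.32). Genes of granulocytes and of monocytes thus rose in the same libraries, which as mixtures do not say whether they rose in the same cells. Integrin chains moved with them: ITGAM, the alpha chain of CD11b/CD18, rose by 2.79 (SE 0.34) and ITGB2, its beta chain, from 33.7, 46.2 and 25.4 CPM to 175, 300.4 and 435 CPM. ICAM1, a ligand of that integrin, rose by 2.31 (SE 0.32). CD86, a costimulatory ligand, rose by 3.21 (SE 0.37) and was the sole call among 12 genes of MHC class II and costimulation. The median of that list was -0.41, and at an unadjusted edgeR p under 0.05 4 of its genes were lower and 1 higher.

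Among 33 cytokines and chemokines 8 rose and 3 fell (median 0.58), and IL1B, TNF, CXCL8 and IL6 were not called. Over all genes, 9.15% were called higher and 2.12% lower. IL1RN, the interleukin 1 receptor antagonist, rose from 2.77, 3.65 and 4.08 CPM to 86.1, 164 and 167 CPM (log2 5.31, SE 0.37, edgeR adjusted p = 4.46e-44). IL1B, the agonist, had 78.9, 99.2 and 97.2 CPM in EV and 111, 151 and 156 CPM in p42. Its log2 fold change of 0.60 (SE 0.29, edgeR adjusted p = 0.173) did not pass, although the groups were apart. TNF was at 5.90, 12.5 and 12.3 CPM in EV and 9.59, 16.9 and 19.6 CPM in p42. CXCL8, interleukin 8, had 219, 335 and 638 CPM in EV and 426, 455 and 546 CPM in p42, so its ranges overlapped. IL6 had at most 0.217 CPM in any of these 6 libraries. CXCL1, a neutrophil attractant, rose from 0.163, 0.347 and 0.506 CPM to 2.51, 6.70 and 6.51 CPM, and CCL24, an eosinophil attractant, rose by 3.85 (SE 0.47). CCL2, the monocyte attractant, rose by 1.14 (SE 0.31, edgeR adjusted p = 0.00269) and was not called without EV replicate 1 (0.93), without p42 replicate 3 (0.99) or with DESeq2 (adjusted p = 0.0852). The 3 that fell were TNFSF13B (BAFF), from 154, 123 and 167 CPM to 40.1, 62.2 and 82.5 CPM, LIF, and CSF2, which had 0.529, 0 and 0.687 CPM in EV and 0 reads in p42, with overlap at 0. LIF, at -1.14, was not called without EV replicate 2 (-0.95), EV replicate 3 (-0.95), p42 replicate 1 (-0.99) or p42 replicate 2 (-0.97), and TNFSF13B was not called after GC correction (-0.97). In leukotriene synthesis ALOX5AP, the partner of 5-lipoxygenase, rose by 3.49 (SE 0.34) and ALOX5 itself from 0, 0.260 and 0 CPM to 1.98, 2.44 and 3.64 CPM. PTGES and PTGDS, which make prostaglandins E and D, had 0 reads in EV and were at least 12.7-fold and 4.45-fold higher.

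Immediate early genes split into opposite directions. The counts in this and the related lists stand beside 9.15% of all genes called higher and 2.12% called lower. Of 14 AP-1 genes 5 rose, led by JUN, which went from 15.2, 16 and 8.60 CPM to 102, 106 and 135 CPM (log2 3.11, SE 0.33). FOS had 5.86, 19.8 and 17.9 CPM in EV and 44.6, 69.6 and 96.9 CPM in p42. ATF3 rose by 1.69 (SE 0.33) and JUNB by 1.26 (SE 0.30), though JUNB was not called without p42 replicate 3 (0.98) or after GC correction (0.84). BATF2 was carried by a single library, with 0.167, 2.84 and 0.599 CPM in p42, and without p42 replicate 2 its value was 0.59 (edgeR adjusted p = 0.789). It was also not called without EV replicate 1 (2.10, edgeR adjusted p = 0.0588) or EV replicate 3 (2.06, edgeR adjusted p = 0.0614). The feedback genes SOCS3, IER3 and KLF6 rose, by 4.91 (SE 0.42), 2.29 (SE 0.33) and 1.78 (SE 0.31). In the same list of 29 genes, with 9 rises in all, 6 fell, all of the EGR and NR4A families of stimulus-responsive factors. NR4A3 had 5.41, 16 and 33.8 CPM in EV and 4.88, 3.07 and 7.15 CPM in p42, EGR3 17.7, 69.2 and 111 CPM in EV and 17, 11.8 and 37.2 CPM in p42, and NR4A2 27.2, 55.9 and 113 CPM in EV and 24.9, 15.1 and 35.1 CPM in p42. For all 3 the EV libraries differed among themselves by a wide margin and overlapped the p42 libraries, EV replicate 1 being the lowest and EV replicate 3 the highest. EGR2 had 11.3 ± 7.71 CPM in EV (mean and SD, n = 3), with 3.17 CPM in replicate 1, and 4.96, 5.38 and 5.82 CPM in p42, so it overlapped too, and its value of -1.07 (edgeR adjusted p = 0.0112) was -0.96 (edgeR adjusted p = 0.0566) with TMM. After LPS EGR2 was called in the opposite direction, 3.07 higher with p42 (SE 0.35). Its level after LPS was 2.82, 3.43 and 3.11 CPM in EV and 20.7, 28.7 and 29.4 CPM in p42. Without EV replicate 3, EGR3 stood at -0.96 (edgeR adjusted p = 0.053) and NR4A2 at -0.71 (edgeR adjusted p = 0.222). In the NF-kB family 4 of 12 rose: BCL3 by 2.53 (SE 0.34), NFKB2 by 1.71 (SE 0.32), NFKBIA, the inhibitor, by 1.41 (SE 0.31), and RELB by 1.19 (SE 0.32). RELB was not called without EV replicate 3 (0.92) or after GC correction (0.80). Interferon-stimulated genes gave 1 rise and 1 fall in 26. IRF7 at 1.15 was not called without p42 replicate 3 (0.80) or after GC correction (0.63), and IFI27 at -1.51 was not called without p42 replicate 1 (-0.96) or with DESeq2 (adjusted p = 0.133).

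Of 18 myeloid lineage transcription factors 8 rose (median 1.11), and none fell in edgeR, in DESeq2 or at an unadjusted p under 0.05. PPARG, a nuclear receptor of fat cells and macrophages, had 0 reads in EV and 3.23, 5.18 and 4.28 CPM in p42, at least 32.5-fold higher. TRIB1, a pseudokinase that directs C/EBP-alpha to degradation, rose from 6.34, 9.42 and 9.25 CPM to 104, 163 and 194 CPM (log2 4.21, SE 0.35). KLF5 rose by 2.63 (SE 0.34) and ID1, an inhibitor of helix-loop-helix factors, by 2.23 (SE 0.43). SPI1 (PU.1) had 90.1 to 201 CPM in EV and 144 to 292 CPM in p42, and GFI1 52.9 to 75.9 CPM and 61 to 130 CPM, and neither passed. Within the C/EBP family itself CEBPD rose from 2.89, 4.17 and 2.17 CPM to 7.55, 13 and 14 CPM (log2 1.91, SE 0.35), and 4 of 7 members were called. CEBPE, required for secondary granules, had 4.03, 5.42 and 2.31 CPM in EV and 5.41, 9.15 and 12.7 CPM in p42 (log2 1.21, SE 0.34). It was not called without EV replicate 3 (0.96) or p42 replicate 3 (0.90), or after GC correction (0.79). CEBPB at 1.05 was not called without EV replicate 3 (0.92) or p42 replicate 3 (0.81), or after GC correction (0.56), and DDIT3 at 1.14 was not called without EV replicate 3 (0.99) or p42 replicate 2 (0.96).

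Of 19 stem and progenitor factors tested 4 fell and none rose in edgeR or in DESeq2, with 1 rise at an unadjusted p under 0.05 (median -0.47). ERG fell from 87.7, 95.1 and 80.4 CPM to 19.8, 19.3 and 38.9 CPM (log2 -1.76, SE 0.32, edgeR adjusted p = 7.89e-07). IKZF2 (Helios) fell from 329, 293 and 421 CPM to 120, 76.6 and 156 CPM, and MYCN by 1.28 on the log2 scale (SE 0.30). MYB was at the threshold with -1.04 and fell short of it under TMM (-0.97), without EV replicate 1 (-0.99), p42 replicate 1 (-0.88) or p42 replicate 2 (-0.94), and after GC correction (-0.93). CD34, the surface marker of progenitors, fell from 439, 483 and 413 CPM to 88.9, 100.2 and 187 CPM (log2 -1.83, SE 0.30, edgeR adjusted p = 3.11e-08), with no overlap. CLEC12A, a marker of more mature blasts, rose from 17.3, 14.4 and 13.6 CPM to 48.3, 92.2 and 91.5 CPM. KIT, at 13.2 to 15.7 CPM in EV and 7.58 to 12.1 CPM in p42, GATA2, at 233 to 465 CPM and 172 to 299 CPM, and SOX4, at 112 to 146 CPM and 75 to 134 CPM, did not pass. CDK6, a cyclin-dependent kinase that binds D cyclins, fell from 1395, 1318 and 1944 CPM to 681, 471 and 942 CPM (log2 -1.15, SE 0.27). It was not called without EV replicate 3 (-0.94) or p42 replicate 2 (-0.94), or after GC correction (-0.91), although the edgeR adjusted p stayed at 0.00554 in the last.

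Of 12 mast cell, basophil and eosinophil genes tested 5 fell and 1 rose (median -0.83), where 2.12% of all genes fell and 9.15% rose. MS4A2, the beta chain of the high-affinity IgE receptor (chromosome 11, 60088261 to 60098467), had 12.5, 11.8 and 13.2 CPM in EV and 0.641, 0.150 and 1.03 CPM in p42. FCER1A, the alpha chain of the same receptor, fell from 66.2, 72.1 and 81.2 CPM to 20.6, 18.2 and 24 CPM (log2 -1.81, SE 0.32). TPSAB1, a tryptase with near-identical copies that can share reads, fell by 2.16 on the log2 scale (SE 0.36). CPA3, the mast cell carboxypeptidase, fell from 74.8, 72.8 and 92.3 CPM to 34.4, 28.9 and 32.4 CPM. HPGDS, which makes prostaglandin D, fell by 1.21 on the log2 scale (SE 0.31) and by 0.99, short of the threshold, after GC correction. CCR3, the eotaxin receptor, rose from 0.366, 0.130 and 0.470 CPM to 0.697, 1.45 and 2.18 CPM. GATA1, the master factor of erythroid, megakaryocyte and mast cells, fell from 2.44, 3.82 and 0.903 CPM to 0.0558, 0.125 and 0.599 CPM (log2 -3.33, SE 0.52). HBD, the delta chain of haemoglobin, fell by 2.26 on the log2 scale (SE 0.55). Of 12 lymphoid markers tested NKG7, GNLY and KLRD1, genes of cytotoxic cells, rose, to at most 18.3, 0.856 and 0.374 CPM, and CD3E was called lower at under 0.8 CPM in every library. CD3E was not called when any single library of the 6 was left out (-1.84 to -2.36, edgeR adjusted p from 0.0538 to 0.173).

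**Figure D2:**
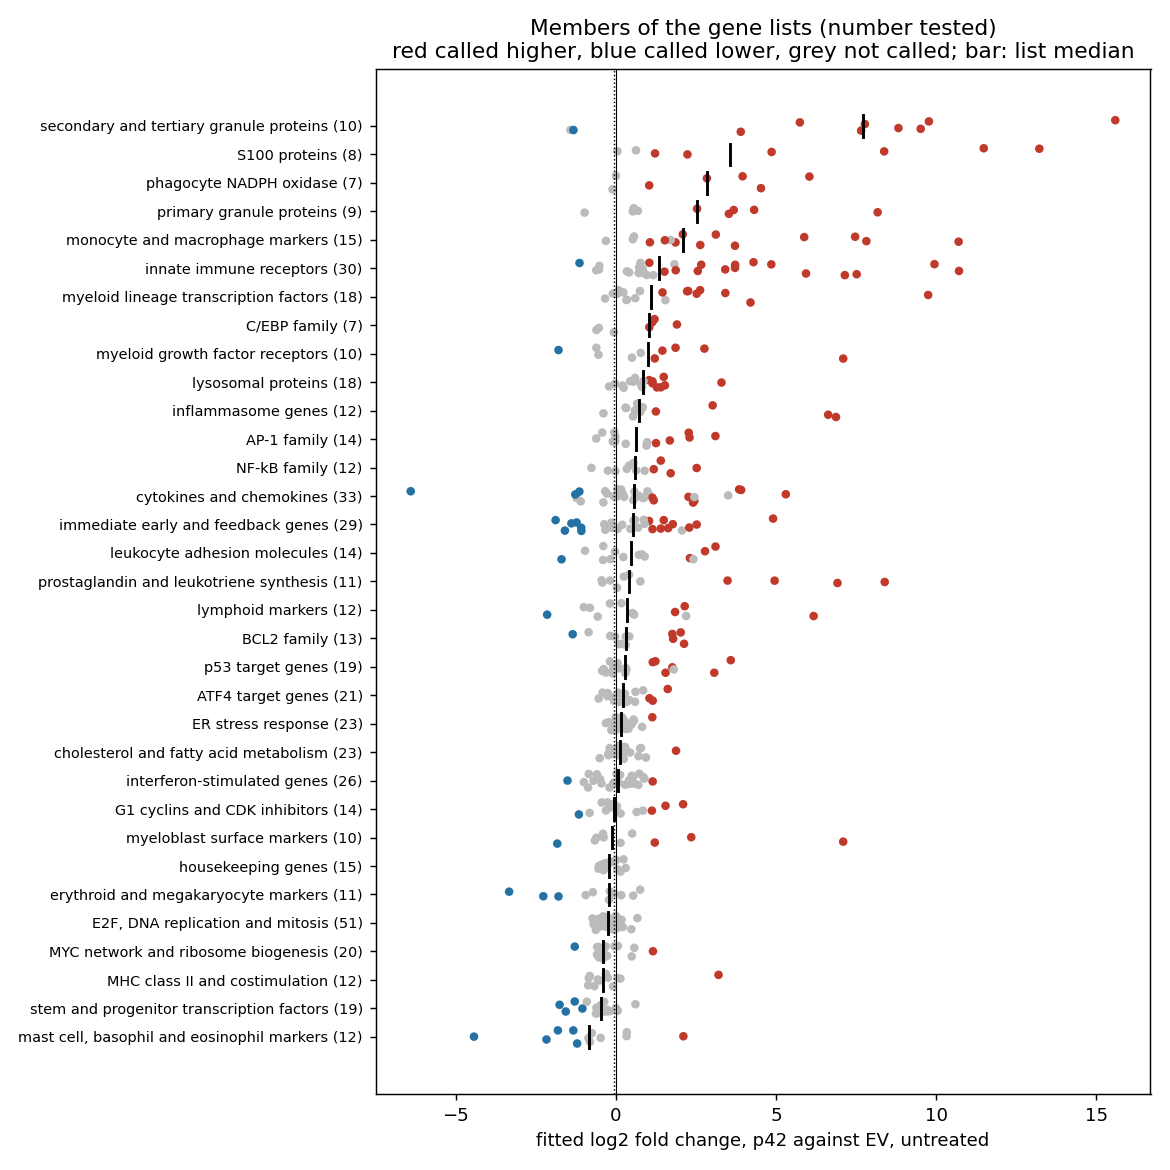
Each row is a gene list with the number of its genes tested, ordered by median (black bars), and each point a gene at its fitted log2 fold change of p42 against EV, coloured red when called higher, blue when called lower and grey otherwise. Secondary and tertiary granule genes have the highest median, 7.72, and mast cell, basophil and eosinophil markers the lowest, -0.83, with the dotted line at the median of all genes, -0.06. The highest median is partly set by the filter, which keeps genes at 0 reads in EV only if they are high elsewhere.

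The 10 largest rises, among genes with a mean of at least 50 reads whose groups did not overlap, lay partly outside the blood cell lists. That the groups were apart in these genes was a condition of the choice and not a result. Those with 0 reads in EV passed the filter only through libraries in which they are high, which fixed their direction. ALDH1A1, a retinaldehyde dehydrogenase that is abundant in liver, had 0 reads in EV and 15.9, 23.8 and 23.8 CPM in p42, at least 163-fold higher. CDA, cytidine deaminase, which inactivates cytarabine and other cytidine analogues, had 0 reads in EV and 8.89, 17.3 and 20.5 CPM in p42, at least 120-fold higher. RALYL, an RNA-binding protein gene best known from the brain, was at least 117-fold higher, and SERPINB12, a protease inhibitor of epithelia, at least 112-fold. Pseudogenes made up 4 of the 10, namely MPHOSPH10P1, FRG1EP, KHDC1P1 and UGT2B26P, with 0 reads in EV and 36 to 60.3, 17 to 22.4, 9.34 to 21.9 and 11.1 to 21.7 CPM in p42. Their reads may be shared with their parent genes. The other 2 of the 10 were MMP8 and S100A9. For KHDC1P1, UGT2B26P, RALYL and SERPINB12 the p30 libraries had 0 reads as well.

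Of the 10 largest falls chosen in the same way, MS4A2 was the first. MYO16, an unconventional myosin, fell from 12.1, 13 and 13.9 CPM to 0.781, 0.972 and 1.41 CPM (log2 -3.64, SE 0.38). SORCS1, a sorting receptor, fell from 5.49, 4.56 and 6.14 CPM to 0.641, 0.872 and 0.599 CPM. UGT2B11, a glucuronosyltransferase, fell from 19.3, 17.4 and 33.1 CPM to 3.96, 1.89 and 4.54 CPM, which was opposite to the pseudogene UGT2B26P of the same family. IKZF3 (Aiolos), a lymphoid zinc finger factor, fell from 7.16, 7.33 and 10.01 CPM to 0.446, 1.55 and 1.97 CPM. HPSE2, LINC00426, VSTM1 and USP44 followed, with log2 fold changes from -2.74 to -2.53. That no EV library reached down to a p42 library in these genes was a condition of the choice and not a result.

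None of 51 genes of E2F, DNA replication and mitosis was called by edgeR or by DESeq2. At an unadjusted edgeR p under 0.05, 1 was higher and 7 were lower. The share of all genes at that threshold was not counted. The median was -0.25, with single values from -0.73 to 0.67. E2F1 had 65.8, 93 and 44.9 CPM in EV and 51.9, 73.5 and 106 CPM in p42 (log2 0.18, SE 0.30). MYC had 394 to 527 CPM in EV and 237 to 437 CPM in p42 (log2 -0.50, SE 0.28, edgeR adjusted p = 0.279), and in its network of 20 genes MXD1, an antagonist of MYC, rose by 1.16 (SE 0.31) and MYCN fell. Without p42 replicate 3 MXD1 stood at 0.85 (edgeR adjusted p = 0.0612). CDKN1A, the inhibitor p21, rose from 18.8, 26.3 and 21.3 CPM to 54.6, 59.6 and 80.5 CPM (log2 1.55, SE 0.31). CDKN2C was under 1.5 CPM in every library, and its call was lost without EV replicate 1 (1.91), EV replicate 2 (1.75), p42 replicate 2 (2.04) or p42 replicate 3 (1.82). CDKN2D at 1.13 was not called without EV replicate 3 (0.94) or p42 replicate 3 (0.82), or after GC correction (0.81). Of 19 p53 target genes 6 rose, including FAS, a death receptor, by 1.24 (SE 0.33) and TNFRSF10B, a death receptor for TRAIL, from 13.3, 11.2 and 12 CPM to 74, 94.6 and 139 CPM. The BCL2 family changed both ways: the survival gene BCL2A1 rose by 2.13 (SE 0.32) together with the death-promoting genes BMF, by 2.03 (SE 0.32), BCL2L11, by 1.79 (SE 0.35), and BBC3, by 1.76 (SE 0.36), while PMAIP1 fell from 213, 253 and 336 CPM to 77.9, 99.4 and 138 CPM.

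Among 18 lysosomal genes 8 rose (median 0.84), with CTSD, cathepsin D, going from 404, 523 and 249 CPM to 649, 1383 and 1372 CPM and CTSL rising by 3.30 (SE 0.53). TRIB3 rose by 1.62 (SE 0.31) among 21 ATF4 targets, where the other calls, SESN2 at 1.15 and SLC7A11 at 1.05, were lost without p42 replicate 3 or after GC correction (SESN2, 0.92 and 0.88) and without EV replicate 1, without EV replicate 2 or with the spike-in sum (SLC7A11, 1.00, 0.88 and 0.98). These 3 rises in 21 stand beside 9.15% called higher over all genes. DDIT3 was the sole call in 23 ER stress genes. ABCA1, the cholesterol exporter, rose by 1.88 (SE 0.32) as the sole call in 23 genes of cholesterol and fatty acid metabolism. Of 15 housekeeping genes none was called by edgeR or DESeq2 and none had an unadjusted p under 0.05 (values from -0.54 to 0.31).

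p30 shares its DNA-binding part with p42, and its 3 libraries show which changes also came with the short form. CEBPA had 2229, 2233 and 2045 CPM in p30, beside 919, 991 and 1639 CPM in p42. The log2 difference of p42 from p30 was -0.87 (SE 0.26, edgeR adjusted p = 0.0127), short of the fold threshold. For p30 against EV it was 0.34 (SE 0.26, edgeR adjusted p = 0.502). Whether this difference in CEBPA bears on the values below was not tested. Against the same EV libraries p30 had 726 genes higher (3.41% of those tested) and 88 lower (0.414%). The direct comparison, p42 against p30, had 1308 genes higher (6.15%) and 457 lower (2.15%). These totals leaned on the scaling, since TMM moved the median of all genes from 0.15 to 0.00 for p30 against EV and from -0.23 to 0.01 for p42 against p30. With TMM the counts were 777 and 310 for the former and 1805 and 296 for the latter. They also leaned on single libraries: p30 rises against EV ranged from 325 (without EV replicate 1) to 1365 (without EV replicate 2), p30 falls from 26 (without p30 replicate 1) to 121 (without EV replicate 2), and genes lower with p42 than with p30 from 196 (without p42 replicate 2) to 1667 (without p42 replicate 3). The libraries shared between these comparisons make their values dependent on one another, so only the values of single genes are set side by side.

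Several late granule and scavenger genes were higher with p42 than with p30. MMP8 had 2.92, 2.24 and 1.94 CPM in p30, and the log2 difference between p42 and p30 was 6.68 (SE 0.39, edgeR adjusted p = 7.95e-61). ARG1 had 0.252 to 0.969 CPM in p30 (difference 7.91, SE 0.44) and CD163 0.288 to 1.23 CPM (6.00, SE 0.41), while HP had at most 0.0721 CPM there. TRIB1, with 8.43, 10.4 and 11.3 CPM in p30, differed from EV by 0.27 (SE 0.32) there and was 3.94 (SE 0.35) higher with p42. CSF3R differed by 1.01 (SE 0.31, edgeR adjusted p = 0.0148), JUN by 1.45 (SE 0.31) and CD34 by -1.14 (SE 0.29).

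Other genes were higher with p30, or their difference did not pass. MPO reached 1084, 1399 and 1110 CPM in p30, a rise of 2.77 over EV (SE 0.30), and was 2.08 (SE 0.29, edgeR adjusted p = 5.26e-11) lower with p42 than with p30. GNLY, with 5.48, 6.84 and 6.46 CPM in p30, was 3.08 (SE 0.44) lower with p42, CCL2, with 97.9, 258 and 243 CPM, 1.96 (SE 0.31) lower, and TNF, with 32.8, 44.8 and 48.3 CPM, 1.45 (SE 0.31) lower. The EGR and NR4A genes that were lower with p42 than with EV were also lower than with p30, EGR3 by 2.60 (SE 0.33) and NR4A3 by 2.23 (SE 0.34). FCN1 had 21.3, 32.3 and 35.4 CPM in p30 and differed from p42 by 0.03 (SE 0.31), CD14 by 0.47 (SE 0.37), ITGAM by 0.71 (SE 0.32) and CPA3 by -0.06 (SE 0.31). CEBPE, at 16.4, 20.4 and 13.2 CPM in p30, was 0.88 lower with p42 (SE 0.33, edgeR adjusted p = 0.0689), which did not pass. Among 5 primary granule genes called against EV, PRTN3, MS4A3, RNASE2 and RNASE3 were higher with p42 than with p30 (2.05, 1.82, 1.48 and 1.31), and AZU1 did not pass (0.67, SE 0.48).

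The comparison of p42 with EV was repeated in cells given LPS, a bacterial cell wall lipid, for 2 h, in libraries separate from the untreated ones. The p42 columns of this condition were assigned to their group by name, and libraries of another line in the series bear the same names. After LPS p42 had 1665 genes higher than EV (7.83% of those tested) and 806 lower (3.79%). Of the 1947 genes called higher untreated, 1384 were also called higher after LPS, which is 71.1% of the untreated list and 83.1% of the LPS list. Of the 451 called lower, 281 were also called lower, 62.3% and 34.9% of the lists. There were 2 genes called in opposite directions. CD34 changed by -1.83 untreated and -1.93 (SE 0.30) after LPS, CYBB by 4.53 and 4.56 (SE 0.36), and TRIB1 by 4.21 and 4.81 (SE 0.36). CEBPA was lower in the p42 libraries after LPS by 1.34 (SE 0.26, edgeR adjusted p = 9.29e-06).

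A test of the difference between the untreated and the LPS effect found 43 genes (0.202% of those tested), of which 42 had a more positive p42 effect after LPS. TNF, which did not pass untreated, was 4.75 (SE 0.36) higher with p42 than with EV after LPS, and its difference between the states was -4.17 (SE 0.46, edgeR adjusted p = 2.16e-16). CXCL8 changed by 0.26 untreated and 4.32 (SE 0.32) after LPS, and IL1B by 0.60 and 4.11 (SE 0.32). The EV level enters these values too. In EV, CXCL8 was at 219, 335 and 638 CPM untreated and at 88.9, 41.2 and 73.1 CPM after LPS. In p42 it was at 426, 455 and 546 CPM untreated and at 834, 1463.5 and 1755 CPM after LPS. TNF in EV was at 5.90, 12.5 and 12.3 CPM untreated and at 7.98, 10.6 and 8.03 CPM after LPS. IL1RN, already raised untreated, changed by 5.31 and 5.09 (SE 0.36), with no difference detected between the states (0.22, SE 0.44).

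**Figure D3:**
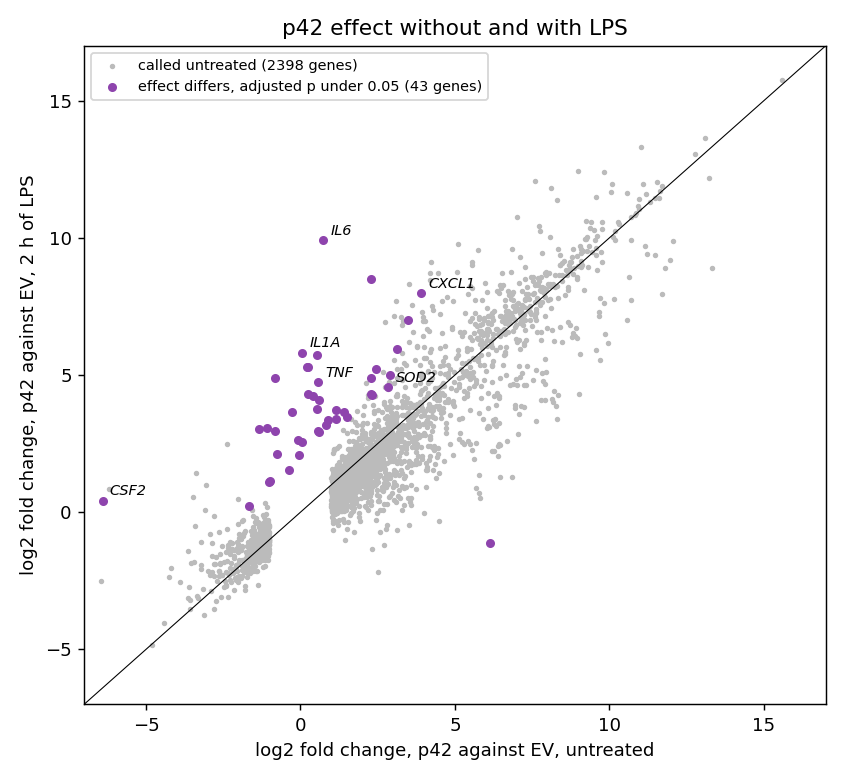
For each gene the log2 fold change of p42 against EV is drawn untreated (horizontal axis) and after 2 h of LPS (vertical axis), with the diagonal for equal values. Grey points are the 1947 and 451 genes called untreated and purple points the 43 genes whose effect differs at an edgeR adjusted p under 0.05, of which 42 lie above the diagonal, including TNF, IL1A, IL6 and CXCL1.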

How the data were processed

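RNA libraries were made from poly-A RNA of sorted KO-52 cells with ERCC spike-ins added. The authors aligned reads to hg38 with Bowtie2 2.4.4 and used featureCounts (Subread 2.0.3) with NCBI RefSeq genes, keeping reads that mapped to a single place, and the deposited values are raw counts per gene and library. The strand setting of the counting is not given in the sources used here, so overlapping and antisense genes are uncertain.

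From these counts, edgeR 4.0.16 (R 4.3.3, limma 3.58.1) was run as a quasi-likelihood test on all 18 KO-52 libraries in 6 groups of 3, with size factors from the spike-ins as in the study, a filter on low counts that left 21272 genes, and Benjamini-Hochberg adjustment over all of them. A spike-in at 0 reads in any library does not enter the size factors, and 73 to 89 of the 92 had reads in each library. Calls needed both an adjusted p under 0.05 and a change of more than 1 on the log2 scale. Each SE was derived from the edgeR test, as the absolute log2 fold change divided by the square root of its F statistic. It is approximate, and unreliable for changes near 0 or for groups at 0 reads. The study describes its replicates of a cell line as individual experiments. For a gene at 0 reads in EV, a fold is a bound against 3 reads per library. Counting intervals cover counting error only, and the range of gene reads per library is given with the results. No pairing by replicate number was detected: correlations of same-numbered EV and p42 libraries ran from -0.14 to 0.23. With 3 libraries per group, that also differ by GC content and scaling, such correlations cannot exclude a pairing.

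The groups, members and gene lists were chosen with earlier results of these data known. The genes named were CEBPA, the 10 largest rises and falls with a mean of at least 50 counts and no overlap, up to 3 called genes per list and direction, a fixed list of myeloid genes, and all called members of a list where 5 or fewer were called. Any other list member named was chosen after its values were seen, and some genes that the rule names are not reported here. Gene positions and the 250-base windows came from GENCODE v44 on hg38, in place of RefSeq windows, for the 17687 tested genes whose symbols matched, and motifs were searched on both strands. Scripts were tested on simulated data. Alternatives were DESeq2 1.42.0, TMM, RLE and spike-in sums as scaling, no filter, no fold threshold, only the groups compared, a replicate block, and each library left out. A correction for GC content was added after the data were seen. Figures were drawn with matplotlib 3.10.9.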

Additional observations from a re-analysis of the deposited data

Results flagged for a closer look

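The effect of p42 against EV differed between untreated cells and cells given LPS in 43 genes by a test of the difference itself (edgeR adjusted p under 0.05). Values are the untreated effect minus the effect after LPS, on the log2 scale, first for 11 genes taken up by the naming rule. Among cytokines the difference was -4.17 for TNF (edgeR adjusted p = 2.16e-16), -4.06 for CXCL8 (edgeR adjusted p = 7.56e-19), -3.50 for IL1B (edgeR adjusted p = 8.69e-14), -4.08 for CXCL1 (edgeR adjusted p = 6.11e-07) and -2.24 for CCL2 (edgeR adjusted p = 0.000245). IL6 stood at -9.18 (edgeR adjusted p = 8.35e-05) and CSF2 at -6.83 (edgeR adjusted p = 0.0338), both from near 0 reads untreated, so these sizes depend on the fit. NFKBIA stood at -2.26 (edgeR adjusted p = 0.000159), IER3 at -2.01 (edgeR adjusted p = 0.00554), ICAM1 at -1.97 (edgeR adjusted p = 0.00411) and SOD2 at -1.71 (edgeR adjusted p = 0.0158). In all 11 the p42 effect was more positive after LPS.

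The same held for the other 12 list members among the 43, at -5.77 for IL1A, -5.19 for CCL4, -5.10 for CCL3, -4.14 for EGR2, -3.94 for CXCL2, -3.84 for PTGS2, -3.21 for NFKBIZ, -2.75 for CXCL3, -2.64 for CXCL10, -2.46 for TNFAIP3, -1.92 for BTG2 and -2.38 for IL7R. EGR2 was called lower with p42 untreated and higher after LPS.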

How the results depend on the processing

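In the comparison of p42 with EV, rises ran from 1558 to 2335 and falls from 277 to 938 with 1 library left out. The count of falls is therefore less firm than that of rises. For p30 against EV, rises were 358 after GC correction and 469 with the spike-in sum, and 325 to 1365 with 1 library left out. Falls were 325 with RLE, 310 with TMM, 28 after GC correction, 54 without the filter, 161 with the groups compared alone, and 26 to 121 with 1 library left out. Genes lower with p42 than with p30 numbered 302 with RLE, 296 with TMM, and 196 to 1667 with 1 library left out. For the difference between untreated and LPS effects, 1 gene had the more positive effect untreated; this was 2 with DESeq2, 4 with RLE, 4 with TMM, 2 after GC correction, 2 without it on the same genes, and 1 to 6 with 1 library left out. In the opposite direction there were 67 with RLE, 66 with TMM, and 28 to 52 with 1 library left out. The cause was not tested. The GC correction was chosen after seeing the data and gave 1502 rises and 323 falls for p42 against EV, beside 1613 and 360 on the same genes without it.

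With replicate number as a block, p42 against EV gave 1767 rises and 464 falls, p30 against EV 731 and 121, and p42 against p30 1221 and 425. Replicate numbers did not pair the libraries, since 0 of 3 EV libraries correlated best with the p42 library of its own number.

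For the 143 named genes, 2271 comparisons over 16 settings left 2201 on their side of the threshold, made 69 fall short of it and 1 pass it, and reversed 0. Genes under about 1 CPM rest on few reads, and fitted folds of genes at 0 in EV have no exact size.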
